A study of Mus musculus with 8 samples.

Results

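Collagen chain genes were read on 8 Agilent 2-colour arrays of mouse sciatic nerve. The genes were taken by name: every probe whose gene name in the scanner files is Col, a number, a and a number, with nothing after it, was a member, and each gene was represented by its brightest probe in Cy3, the dye of the nerve RNA. This gave 43 genes with 67 probes, out of 34821 gene names. Of the 43, 30 passed the filter on dim probes, which asked for a Cy3 signal well above background on at least 4 of the 8 arrays, and 15343 gene names passed it in all. A gene could pass through 1 genotype alone, since a group holds 4 arrays.

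The nerves came from male mice aged 60 days. There were 4 SOD1G93A mice, a transgenic model of amyotrophic lateral sclerosis with a mutant human SOD1 gene, and 4 wild-type mice without the transgene. The labels do not name the promoter that drives the transgene or the founder line, and the whole nerve was taken, so cell types are mixed. Fewer cells of a type and less RNA per cell cannot be told apart in such tissue. The nerve sample was in Cy3 on each array and was set against 1 common pool of RNA from neonatal kidney, heart and liver in Cy5, so that an effect of the dye and a difference between nerve and pool cannot be told apart. All values are log2 ratios of nerve over pool, 0 meaning equal signal and 1 meaning a 2-fold higher signal in nerve, and they compare a gene with itself in the pool, not the level of 1 gene with that of another.

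Collagens are extracellular proteins built from chains that wind into a triple helix. Fibrillar chains form the rope-like fibrils of connective tissue, type IV chains form the sheet of basement membranes, type VI chains form beaded filaments between them, and the fibril-associated chains with interrupted helices, known as FACIT, sit on the surface of fibrils. In peripheral nerve, fibroblasts and Schwann cells make fibrils for the endoneurium, and each Schwann cell and its axon lie in a tube of basement membrane that holds type IV collagen. Chains of a trimer are often made from separate genes, some of which lie side by side in the genome.

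Per RefSeq's gene table, 8 pairs of the 43 genes are next to each other on a chromosome, among them Col4a1 and Col4a2, Col6a1 and Col6a2, Col3a1 and Col5a2, and Col4a3 and Col4a4. All 43 genes are in that table. A separate set of start-site windows of 300 bases, from 250 before to 50 after a start on assembly GRCm38.p6, held 35 of them. The Col4a1 window is shown because it overlaps that of Col4a2, which starts on the other strand, and because Col4a2 had the smallest p of the collagens between genotypes. It lies at chr8:11312777-11313076 on the minus strand, and capitals mark the 78 bases that both windows hold.
Col4a1: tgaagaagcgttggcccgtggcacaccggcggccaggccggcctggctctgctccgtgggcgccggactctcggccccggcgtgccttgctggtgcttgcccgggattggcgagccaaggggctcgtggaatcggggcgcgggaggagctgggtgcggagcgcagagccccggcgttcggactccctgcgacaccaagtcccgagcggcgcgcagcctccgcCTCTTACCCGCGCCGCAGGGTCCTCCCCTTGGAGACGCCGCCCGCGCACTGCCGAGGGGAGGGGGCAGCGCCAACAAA
The Col5a3 window, at chr9:20815018-20815317 on the minus strand, is shown for the gene with the highest ratio of nerve over pool in the processing used here. The Col1a2 window, at chr6:4505368-4505667 on the plus strand, belongs to the second chain of type I collagen, which is set against the first below. Capitals in both mark matches, on either strand, to the motif CCAAT, to the motif GGGCGG or to the motif TATAAA.
Col5a3: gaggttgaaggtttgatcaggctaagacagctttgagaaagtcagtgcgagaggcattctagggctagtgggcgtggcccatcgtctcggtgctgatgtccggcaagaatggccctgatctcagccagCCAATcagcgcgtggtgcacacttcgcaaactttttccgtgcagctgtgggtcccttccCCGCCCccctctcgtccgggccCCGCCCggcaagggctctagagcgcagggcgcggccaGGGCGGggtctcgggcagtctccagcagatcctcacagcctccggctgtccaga
Col1a2: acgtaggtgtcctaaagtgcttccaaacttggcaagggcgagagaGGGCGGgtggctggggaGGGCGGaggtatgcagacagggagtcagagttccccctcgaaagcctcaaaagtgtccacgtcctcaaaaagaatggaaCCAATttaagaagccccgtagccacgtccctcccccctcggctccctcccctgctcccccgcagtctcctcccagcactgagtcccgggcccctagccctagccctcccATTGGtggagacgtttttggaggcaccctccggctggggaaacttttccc
The Col5a3 window held 1 CCAAT and 3 GGGCGG matches, and the Col1a2 window 2 of each. Neither held TATAAA. No match in them overlapped another. Of the 38 windows of collagen genes, 13 held the motif CCAAT, 23 the motif GGGCGG and 5 the motif TATAAA, against shares of 37.4%, 35.7% and 13.6% of all 32851 windows. GC content had a median of 59.8% in the collagen windows and 52.7% in all windows. A match is a description of letters and no binding was measured.

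Each array had 59305 non-control spots, of which 35.5% to 41.7% were well above background in Cy3 and 48.7% to 51.1% in Cy5, and 0 were saturated. Wild-type replicate 1 and SOD1G93A replicate 1 stood apart from the rest. On the first principal component of all genes, which held 36.4% of the variance, SOD1G93A replicate 1 was at -30.3 and wild-type replicate 1 at 33.7, and the other arrays lay from -10.8 to 14.6. The median Cy3 intensity of kept spots was lowest on SOD1G93A replicate 1, 436, and highest on wild-type replicate 1, 880. Each genotype had its own first position number on the slide, and genotype and position cannot be told apart. The 8 Schwann cell markers were all kept, all over 2-fold higher in nerve than in the pool, with a median ratio of 4.50. The 5 heart markers had a median of -3.74, and of the liver and kidney markers only Alb and Slc22a6 were kept, at -3.24 and -2.27.

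Of the 30 collagens kept, the mean ratio of nerve over pool was above 0 for 23 and below 0 for 7. Their median was 0.74, against 0.07 over all 15343 genes kept. The filter reads the nerve channel, so it took out chains that were dim in nerve, 7 of which were above background in the pool on all 8 arrays. With no filter the median over all 43 collagens was 0.10. The median over all genes with no filter is not given here, so the comparison with all genes holds for kept genes alone. More than 2-fold higher on all 8 arrays were 9 of the 30 collagens, or 30%, against 8.96% of all genes, and more than 2-fold lower on all 8 were 2 collagens, or 6.67%, against 5.82% of all genes. The pool had no replicate of its own and no dye was swapped, so these shares are given with no test.

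**Figure D1:**
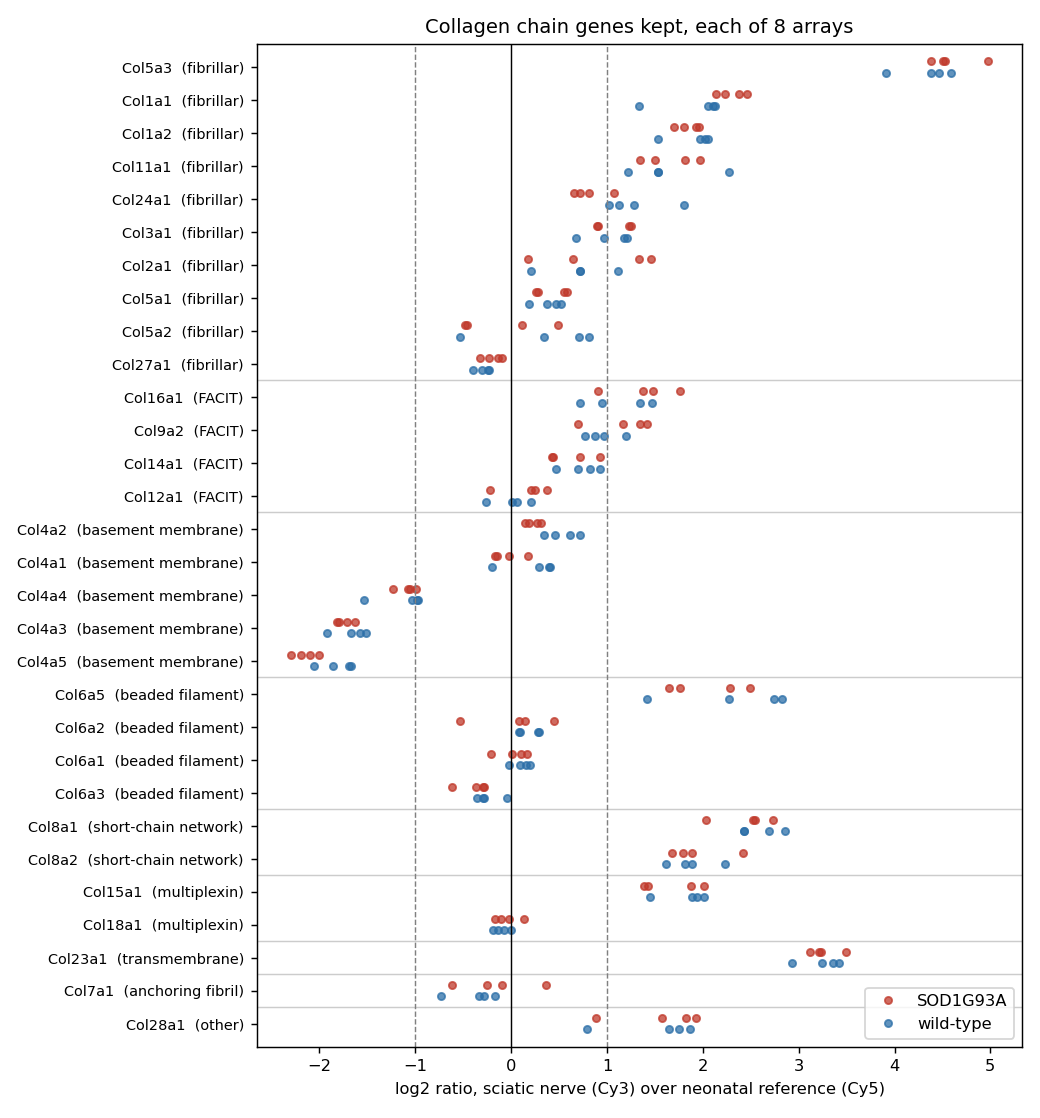
Log2 ratio of nerve over neonatal pool for the 30 collagen genes kept, by class, with 1 point per array, SOD1G93A above wild-type in each row, and dashed lines at 2-fold. Col5a3 lies between 3.91 and 4.97 on all 8 arrays, and Col4a5 between -2.29 and -1.67.

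Of 11 fibrillar genes, 10 were kept, with a median ratio of 1.05. Col5a3, a chain of type V collagen, which regulates fibril width, had the highest ratio of the collagens kept, though with Agilent's own processed signals Col28a1 and Col8a1 stood above it. It was 4.97, 4.51, 4.38 and 4.53 in SOD1G93A nerves, against 3.91, 4.59, 4.38 and 4.46 in wild-type nerves. Its mean over all arrays was 4.47 ± 0.29 (SD, n = 8), or 22.1-fold, and its probe lies at chr9:20574592-20574651 on build mm9. The other type V chains were close to the pool. Col5a1, the first chain, was at 0.28, 0.55, 0.26 and 0.58 in SOD1G93A nerves, against 0.19, 0.37, 0.47 and 0.52 in wild-type nerves, and averaged 0.40 ± 0.15 (SD, n = 8). Col5a2, the second chain, was at -0.48, 0.49, -0.47 and 0.12 in SOD1G93A nerves, against -0.53, 0.35, 0.71 and 0.81 in wild-type nerves, and its SD of 0.55 over 8 arrays was the largest of the collagens kept.

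The chains of type I collagen, the main fibril of connective tissue, were both over 2-fold higher in nerve on all arrays. Col1a1 averaged 2.11 ± 0.34 and Col1a2 1.87 ± 0.18 (SD, n = 8). With each array centred on its median in place of loess, Col1a2 averaged 1.33 and was not over 2-fold higher on every array. Col3a1, the single chain of type III, which mixes with type I in soft tissue, was at 0.90, 1.25, 0.91 and 1.23 in SOD1G93A nerves, against 0.68, 0.97, 1.18 and 1.21 in wild-type nerves. Its values straddled the 2-fold line in both genotypes, with a mean of 1.04, or 0.66 with that centring. Col11a1, a minor chain best known from cartilage fibrils, averaged 1.65 ± 0.35, and Col2a1, the main cartilage fibril, 0.80 ± 0.48 (SD, n = 8). The chondrocyte markers Acan, Matn1, Matn3 and Hapln1 were above background in nerve on 0 of 8 arrays, while Lect1 and Sox9 were kept, at 2.08 and 0.95.

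Type IV collagen split by chain. Col4a1 and Col4a2, whose chains form the network found in nearly every basement membrane, averaged 0.09 ± 0.26 and 0.38 ± 0.20 (SD, n = 8), close to the pool. With each array centred on its median in place of loess, the Col4a1 mean was -0.15. The chains of the second network, best known from the kidney glomerulus, were lower in nerve. Col4a3 was at -1.63, -1.82, -1.72 and -1.80 in SOD1G93A nerves, against -1.67, -1.52, -1.57 and -1.92 in wild-type nerves, and averaged -1.71 ± 0.14 (SD, n = 8). It was above background in nerve on only 2 SOD1G93A and 3 wild-type arrays. Col4a4 was at -1.08, -1.24, -0.99 and -1.05 in SOD1G93A nerves, against -1.54, -0.97, -0.98 and -1.04 in wild-type nerves. Col4a5 averaged -1.98 ± 0.23 (SD, n = 8), a 3.96-fold higher signal in the pool, which contains kidney. Col4a6, its neighbour on the X chromosome, was above background in nerve on 1 array and was not kept. Its 2 probes disagreed, the brightest averaging -0.16 and the other, above background in nerve on 1 wild-type array, -1.67.

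Chains of type VI collagen were mostly near 0. Col6a1 was at -0.21, 0.11, 0.01 and 0.16 in SOD1G93A nerves, against 0.09, 0.20, 0.15 and -0.02 in wild-type nerves. Col6a2 was at -0.53, 0.08, 0.14 and 0.45 in SOD1G93A nerves, against 0.28, 0.29, 0.10 and 0.09 in wild-type nerves, so SOD1G93A replicate 1 was the lowest of all arrays for both chains. Col6a3, the large chain that completes the trimer, was at -0.61, -0.29, -0.37 and -0.28 in SOD1G93A nerves, against -0.04, -0.30, -0.36 and -0.28 in wild-type nerves, with replicate 1 of each genotype at the ends of the range. Col6a5, which can stand in for Col6a3, differed from the other chains. It was at 2.29, 1.65, 2.49 and 1.77 in SOD1G93A nerves, against 2.82, 2.27, 2.74 and 1.41 in wild-type nerves, all over 2-fold higher than the pool. Its other probe averaged 0.13 and was above background in neither dye on any array, so this ratio rests on a single probe. Col6a4 and Col6a6, relatives of Col6a5, were above background in nerve on 0 of 8 arrays.

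Single members of the smaller classes were also well above the pool. Col23a1 was the 1 transmembrane gene kept of 4, and Col13a1, Col17a1 and Col25a1 were above background in nerve on 0 of 8 arrays. Col23a1 was at 3.49, 3.21, 3.24 and 3.12 in SOD1G93A nerves, against 2.93, 3.42, 3.24 and 3.36 in wild-type nerves, and its other kept probes averaged 2.32 and 2.46. Col8a1, a short chain of hexagonal networks, was at 2.04, 2.52, 2.55 and 2.73 in SOD1G93A nerves, against 2.43, 2.69, 2.85 and 2.43 in wild-type nerves. Col8a2, its partner, averaged 1.92 ± 0.27 (SD, n = 8). All of these were on the same side of the 2-fold line on every array. Col15a1, a basement membrane chain whose loss in mice is known to disturb peripheral nerve, was at 2.02, 1.88, 1.39 and 1.42 in SOD1G93A nerves, against 1.45, 1.94, 1.89 and 2.02 in wild-type nerves. Its other kept probe averaged 0.76, under 2-fold, so the size of its ratio depends on the probe. Col18a1, the related source of endostatin, was at -0.17, -0.02, -0.11 and 0.13 in SOD1G93A nerves, against -0.13, 0.00, -0.07 and -0.18 in wild-type nerves.

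Col28a1, a chain known in mice for its place around Schwann cells of peripheral nerve, was above background in nerve on all 8 arrays and in the pool on none. It was at 0.89, 1.93, 1.57 and 1.82 in SOD1G93A nerves, against 0.79, 1.64, 1.86 and 1.75 in wild-type nerves. Replicate 1 was the lowest in both genotypes. The bound for its ratio used, on each array, the lowest Cy5 signal of a probe well above background, or its own Cy5 signal where higher. On the mean over the 8 arrays, nerve was at least 2.86-fold higher. Single arrays could lie below that, as replicate 1 of each genotype did, with measured ratios of 0.89 and 0.79. In this bound the dyes are compared after normalization, and no dye swap balances it. With Agilent's own processed signals, which differ in background correction, offset and normalization, the ratio was 5.15 for Col28a1, 4.75 for Col8a1, 4.60 for Col5a3, 4.28 for Col6a5, 3.88 for Col15a1, 3.75 for Col11a1 and 2.15 for Col24a1, and -2.56 for Col4a3. The direction of each of these was the same under both, while the sizes moved by more than 1.5 times for all but Col5a3, and which of the differing steps moved them was not tested.

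The FACIT genes kept were Col12a1, Col14a1, Col16a1 and Col9a2, 4 of 9, with mean ratios of 0.08, 0.68, 1.25 and 1.06. A second kept probe of Col14a1 averaged 1.35, and another of Col16a1 0.68. Col7a1, the anchoring fibril of skin, averaged -0.26, and Col27a1, a fibrillar chain of cartilage, -0.24. The 13 genes that were not kept were Col10a1, Col11a2, Col13a1, Col17a1, Col19a1, Col20a1, Col22a1, Col25a1, Col4a6, Col6a4, Col6a6, Col9a1 and Col9a3. Of these, 9 were above background in nerve on no array, and 7 were above background in the pool on all 8. For Col13a1, a transmembrane chain, the pool was at least 1.21-fold higher than nerve, and for Col17a1, a chain of hemidesmosomes, at least 1.04-fold. These bounds are also on means over the 8 arrays.

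The comparison of SOD1G93A with wild-type nerve asked which transcripts differ at this age. No collagen was called. Of the 30, 0 passed a limma adjusted p under 0.05, a call made for 25 of 15343 genes, or 0.163%, and 3 had an unadjusted p under 0.05, or 10%, against 11.4% of all genes. The smallest adjusted p of a collagen was 0.295. The median difference, SOD1G93A minus wild-type, was 0.02 for the collagens and -0.02 for all genes. Of the collagens, 16 were higher and 14 lower, and of all genes 6955 were higher and 8388 lower. The confidence intervals of 29 members lay within 1 on the log2 scale on either side of 0, the exception being Col5a2, whose interval ran from -1.13 to 0.30. The intervals reached 0.18 to 0.71 on either side of the estimate, and those of Col4a2, Col4a5 and Col24a1 left out 0 before adjustment.

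**Figure D2:**
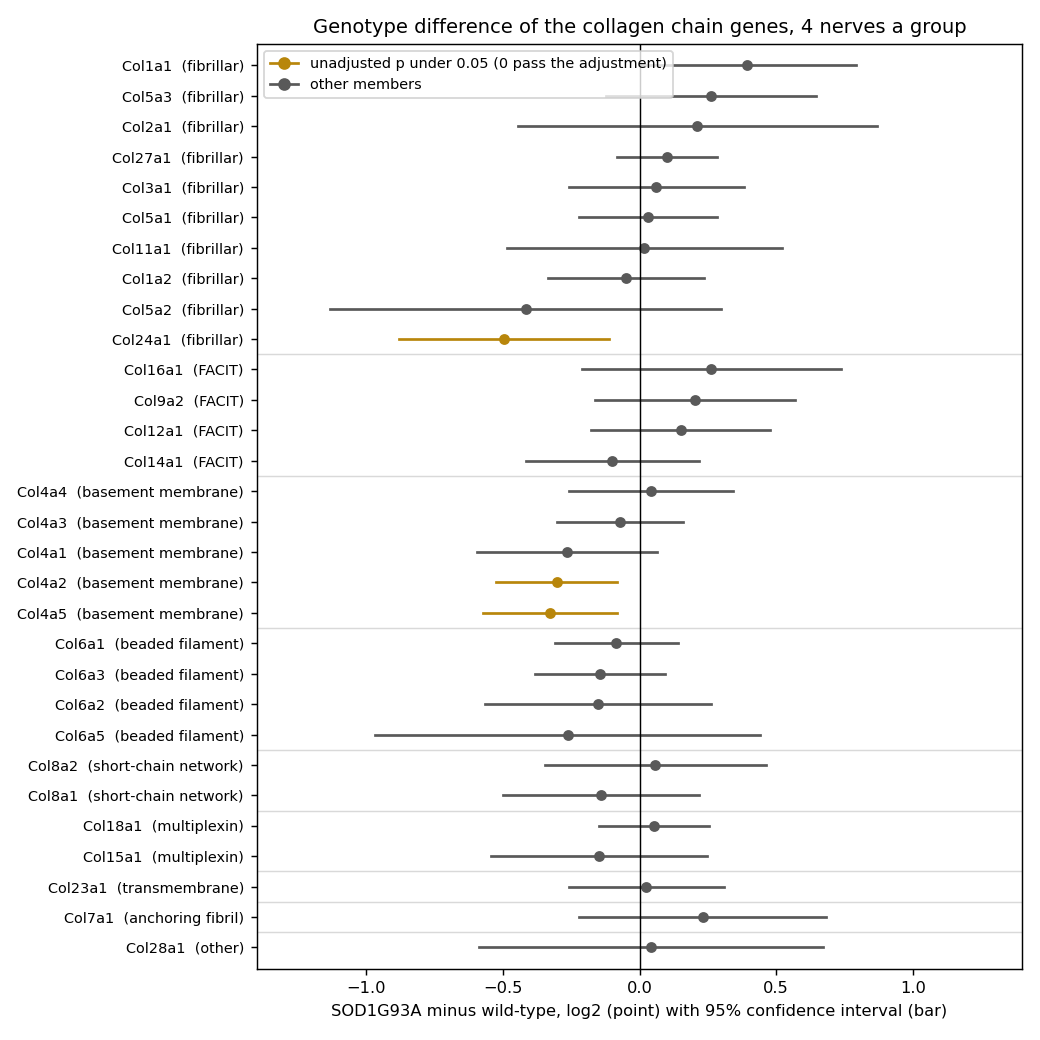
Difference of SOD1G93A minus wild-type in log2 ratio (point) with its 95% confidence interval (bar) for 30 collagen genes by class, 4 nerves a group. The 3 genes with an unadjusted p under 0.05 are Col24a1, Col4a2 and Col4a5, all lower in SOD1G93A nerves, and 0 pass the adjustment.

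Basement membrane chains lay mostly on the lower side in SOD1G93A nerves, with 4 of 5 below 0 and a median difference of -0.26. Col4a2 was at 0.31, 0.14, 0.28 and 0.18 in SOD1G93A nerves, against 0.34, 0.61, 0.72 and 0.46 in wild-type nerves. The groups did not overlap, though SOD1G93A replicate 1 and wild-type replicate 1 were nearly equal. The difference was -0.30 ± 0.10 (SE, limma adjusted p = 0.295). In Cy3 alone it was -0.12 and in Cy5, where the pool is the same on every array, 0.19, so more of this difference lay in the pool's dye than in the nerve's.

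Col4a5 was at -2.29, -2.10, -2.01 and -2.19 in SOD1G93A nerves, against -2.06, -1.67, -1.86 and -1.69 in wild-type nerves. Wild-type replicate 1 fell inside the SOD1G93A range. The difference was -0.33 ± 0.11 (SE, limma adjusted p = 0.302), with -0.38 in Cy3 and -0.05 in Cy5. Col4a1 was at 0.18, -0.16, -0.02 and -0.15 in SOD1G93A nerves, against -0.20, 0.40, 0.41 and 0.29 in wild-type nerves. Here replicate 1 of each genotype ran against its group, the SOD1G93A one being the highest of its group and the wild-type one the lowest of all 8. The difference was -0.26 ± 0.15 (SE, limma adjusted p = 0.529), with -0.23 in Cy3 and 0.04 in Cy5. Its probe lies at chr8:11199009-11199068, and that of Col4a2 at chr8:11448840-11448899, on mm9.

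On the 6 arrays numbered 2 to 4, Col4a1 was the single collagen called, with a difference of -0.48 ± 0.07 (SE, limma adjusted p = 0.0273). On those arrays 1 of 30 collagens, or 3.33%, was called, against 1.53% of all genes, and 8 of 30, or 26.7%, had groups that did not overlap, against 24.1% of all genes. Col4a2 was at -0.40 and Col4a5 at -0.36 there, with limma adjusted p-values of 0.0899 and 0.104. These 6 arrays leave out the ones that stood apart, which also leaves 3 nerves a group. Over all alternatives, the Col4a1 difference ran from -0.48 to -0.20, and its lowest adjusted p elsewhere was 0.0851, with array weights. With those weights Col4a2 had the smallest limma adjusted p of the collagens, 0.0522, also not called.

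**Figure D3:**
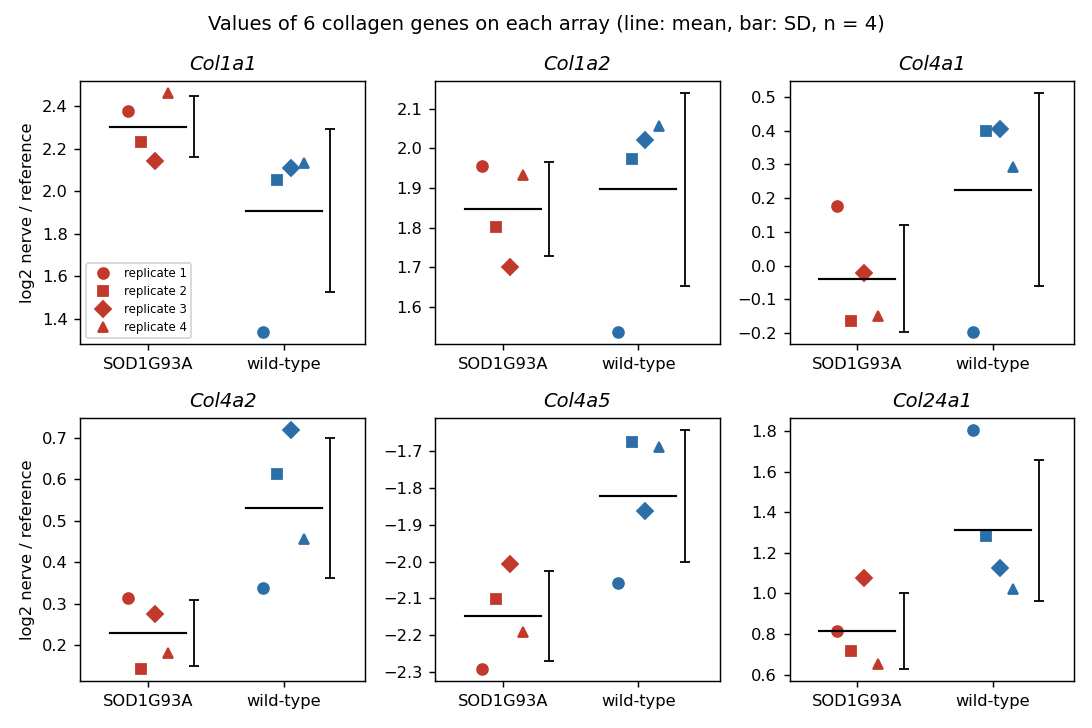
Log2 ratio of nerve over pool on each array for Col1a1, Col1a2, Col4a1, Col4a2, Col4a5 and Col24a1, with SOD1G93A left of wild-type, a symbol per replicate number, the mean as a line and the SD as a bar (n = 4). Axes do not start at 0 and differ between panels. Wild-type replicate 1 is the lowest wild-type array for each of these but Col24a1, where it is the highest at 1.81.

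Among fibrillar chains, 7 of 10 were on the higher side and the median difference was 0.05. On the arrays numbered 2 to 4, Col11a1 turned to -0.07 and Col5a3 to -0.0038. The other fibrillar chains kept their sign there, Col3a1 and Col5a1 at only 0.01 each, so the lean of this class was weaker there. Col1a1 was at 2.38, 2.23, 2.14 and 2.46 in SOD1G93A nerves, against 1.34, 2.05, 2.11 and 2.13 in wild-type nerves. The groups did not overlap, though SOD1G93A replicate 3 and wild-type replicate 4 were nearly equal and wild-type replicate 1 lay far below the rest. The difference was 0.39 ± 0.18 (SE, limma adjusted p = 0.442), and 0.20 without wild-type replicate 1. Over all 30 collagens, 2 had groups that did not overlap, or 6.67%, against 8% of all genes. Col1a2 was at 1.96, 1.80, 1.70 and 1.93 in SOD1G93A nerves, against 1.54, 1.97, 2.02 and 2.06 in wild-type nerves. Apart from wild-type replicate 1, every wild-type value was above every SOD1G93A value, and the difference was -0.05 ± 0.13 (SE, limma adjusted p = 0.901).

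The type I chains were therefore set against each other within each array, as were 11 other pairs of chains of 1 collagen type, a comparison chosen after the values were seen. Col1a1 minus Col1a2 was 0.42, 0.43, 0.44 and 0.53 in SOD1G93A nerves, against -0.20, 0.08, 0.09 and 0.08 in wild-type nerves. Every SOD1G93A array was above every wild-type array, and the groups differed by 0.44. The exact 2-sided permutation test gave p = 0.0286, the smallest that 4 against 4 allows, and 0.343 after Benjamini-Hochberg adjustment over the 12 pairs. Col4a4 minus Col4a5 averaged 1.06 ± 0.15 in SOD1G93A nerves and 0.69 ± 0.15 in wild-type nerves (SD, n = 4 each, exact permutation p = 0.0571, adjusted 0.343). No pair passed the adjustment, which with 4 arrays a group no pair could have passed on its own. In Col1a1, the genotype difference was 0.29 in Cy3 and -0.11 in Cy5.

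Col24a1, a minor fibrillar chain, was at 0.82, 0.72, 1.08 and 0.65 in SOD1G93A nerves, against 1.81, 1.29, 1.13 and 1.02 in wild-type nerves. SOD1G93A replicate 3 overlapped the wild-type range, and wild-type replicate 1 was the highest of all. The difference was -0.50 ± 0.17 (SE, limma adjusted p = 0.322), -0.33 without wild-type replicate 1, and -0.90 with Agilent's processed signals, with an adjusted p of 0.242 there. Col5a2 had a difference of -0.42 ± 0.32 (SE, limma adjusted p = 0.646), the largest error of the collagens. Col5a3 differed by 0.26 ± 0.17 (SE, adjusted p = 0.585), and by 0.00 on the arrays numbered 2 to 4. Differences of Col3a1 and Col5a1 were 0.06 and 0.03.

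All 4 type VI chains kept were on the lower side, by 0.08 to 0.26 on the log2 scale, with a median of -0.15 and 0 called. Col6a3 gave -0.14 ± 0.11 (SE, limma adjusted p = 0.633), of which -0.04 lay in Cy3 and 0.11 in Cy5, and 0.00 on the arrays numbered 2 to 4. Col6a2 turned to 0.07 on those arrays, so the common sign of this class did not hold there. The 4 FACIT genes had a median difference of 0.18, with 3 higher. One more kept probe of Col16a1 gave -0.06, while its other 2 kept probes gave 0.26 and 0.34. Col15a1 gave -0.15, Col18a1 0.05, Col28a1 0.04, Col23a1 0.03 and Col8a1 -0.14, each smaller than its SE.

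Genes that make, process and bind collagen were read from lists of pathway members, and 0 were called in any of the 6 lists. The counts of higher and lower genes stand beside 6955 higher and 8388 lower among all genes kept. Enzymes and chaperones of collagen folding were all kept, 22 of 22, with 7 higher, 15 lower and a median difference of -0.10. Creb3l1, a transcription factor of the endoplasmic reticulum known to drive Col1a1 in mouse bone, averaged 0.32 ± 0.05 in SOD1G93A nerves and 0.08 ± 0.05 in wild-type nerves (SD, n = 4 each), a difference of 0.24 ± 0.07 (SE, limma adjusted p = 0.245). Crtap, part of the prolyl 3-hydroxylase complex, gave -0.21 (adjusted p = 0.380). Groups of 3 of the 22 genes did not overlap, against 8% of all genes. These were Creb3l1 on the higher side, and Crtap and Sec24d on the lower.

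For propeptide processing and cross-linking, 12 of 15 genes were kept, 6 higher and 6 lower, with a median of 0.02. The 2 of smallest p were Pcolce2, an enhancer of propeptide cleavage, at -0.29, and the cross-linking enzyme Loxl1, at -0.29. Of 14 genes of collagen breakdown, 8 were kept, and the collagenases Mmp8 and Mmp13 were above background in nerve on 0 of 8 arrays. Timp1, an inhibitor of matrix metalloproteinases, was at -0.78, -0.47, -0.61 and -0.32 in SOD1G93A nerves, against -1.23, -0.97, -1.11 and -1.45 in wild-type nerves. Its groups did not overlap, 1 of the 8 genes kept, against 8% of all genes. The Timp1 difference of 0.65 ± 0.13 (SE, limma adjusted p = 0.106) had the smallest p of the 6 lists. Ctsk, a collagen-degrading protease, gave -0.18.

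Of 11 collagen receptors, 9 were kept, 5 higher and 4 lower. The integrin chain Itga1, which binds type IV collagen, gave -0.28 ± 0.12, and Ddr2, a receptor kinase for fibrillar collagen, -0.42 ± 0.19 (SE, limma adjusted p = 0.432 and 0.438). Of 15 basement membrane partners, all were kept, with 3 higher, 12 lower and a median difference of -0.12. The laminin chain Lamc1 was at -0.55, -0.37, -0.32 and -0.41 in SOD1G93A nerves, against -0.16, -0.12, -0.11 and -0.05 in wild-type nerves, and Lamc3 gave 0.53 ± 0.14 the other way (SE, limma adjusted p = 0.186 and 0.209). Groups of both, and of Lama4 at -0.24, did not overlap, which makes 3 of the 15, against 8% of all genes. The list's median ratio per array ran the other way, 0.10 to 0.45 in SOD1G93A and -0.16 to 0.01 in wild-type nerves. That median was the value of a single gene, Agrn, Lamc3 or Hspg2 on SOD1G93A arrays and Lamc1 or Agrn on wild-type arrays. The sum of the list's fold ratios was 18.9 to 21.1 in SOD1G93A and 21.0 to 22.8 in wild-type nerves. Of 19 fibril partners, 16 were kept, 7 higher and 9 lower, with Fbn2 at 0.51 and Fbn1, both fibrillins, at -0.31.

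Markers of other cell types are given by the sum of fold ratios over their kept genes on each array, with 0 of them called. Such a sum grows with the number of genes and can rest largely on a single gene, as on Cfd, 135-fold, among adipocyte markers. Skeletal muscle markers, 6 of 9 kept, summed to 3.98 to 4.75 in SOD1G93A nerves and to 5.94 to 61.0 in wild-type nerves. Wild-type replicate 1 was at 61.0 and replicate 2 at 42.3. Endothelial markers, the cells of vessels with their own type IV collagen, were lower for 8 of 9 genes and summed to 4.41 to 5.73 in SOD1G93A and 5.93 to 7.66 in wild-type nerves, with no overlap. Pericyte and smooth muscle markers were lower for 7 of 8, at 9.68 to 11.52 in SOD1G93A and 11.3 to 24.7 in wild-type nerves. Fibroblast markers were lower for 9 of 10, at 37.6 to 51.5 in SOD1G93A and 42.4 to 71.6 in wild-type nerves. Macrophage markers were higher for 7 of 7, at 11.1 to 23.0 in SOD1G93A and 9.81 to 11.98 in wild-type nerves. Adipocyte markers were lower for 7 of 7, at 108 to 233 in SOD1G93A and 156 to 293 in wild-type nerves. Schwann cell markers, 7 of 8 on the higher side, overlapped, at 144 to 227 in SOD1G93A and 140 to 185 in wild-type nerves, and perineurial markers were 3 higher and 3 lower. Markers with no signal above background in nerve included Mylpf of muscle and Cd163 of macrophages. The 2 brightest endothelial markers, Vwf and Kdr, differed by -0.62 and 0.08. The part of these cells in the collagen differences was not tested.

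**Figure D4:**
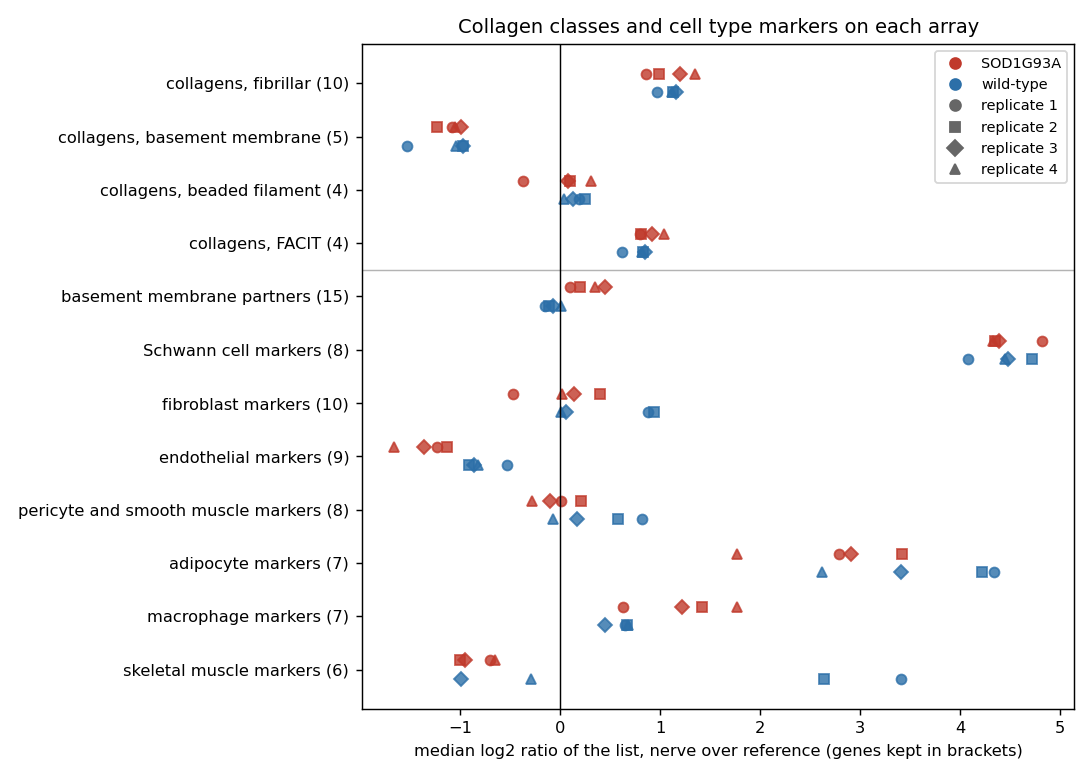
Median log2 ratio of nerve over pool on each array for 4 collagen classes, basement membrane partners and 7 cell type marker lists, with SOD1G93A above wild-type in each row and a symbol per replicate number. Collagen class medians overlap between genotypes in all 4 classes, while the endothelial list runs from -1.66 to -1.13 in SOD1G93A and from -0.91 to -0.54 in wild-type nerves.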

How the data were processed

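Sciatic nerve RNA of 4 SOD1G93A and 4 wild-type mice was hybridised in Cy3 against 1 pool in Cy5. The labels call the arrays of a group biological replicates. Per the file headers, Agilent Feature Extraction 11.5.1.1 wrote the scanner files, which give linear spot intensity as deposited. Version 11.0.1.1 and limma stand in the submitters' processing notes, with no role. In the deposited series table the values are log10 ratios, Cy5 over Cy3, equal to the scanner files' own, and its sign was turned. Deposited columns of flags and names have no unit.

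From the deposited intensities, log2 ratios were computed with limma 3.58.1 in R 4.3.3: normexp with an offset of 50, loess within arrays, control spots without weight, spots marked as outliers left out, spots of a probe averaged. Of 55681 probes, 19838 passed the filter on dim probes. The brightest kept probe stood for a gene, and 7 collagens had several kept. Genotypes were compared with lmFit and eBayes, 2-sided, with Benjamini-Hochberg adjustment over 15343 genes. P-values and adjusted p-values of single genes are from that limma fit unless another test is named.

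The collagens and the gene lists were chosen with earlier results of these data known. Values are given on every array for the 8 collagens of smallest p, 13 main chains, and the 4 highest and 4 lowest by ratio. Pathway lists are given by their 2 genes of smallest p, mostly as differences, and other genes where a sentence needs them. Same-numbered arrays, which share their second position number on the slide, deviated from their group means with correlations of -0.16, 0.04, -0.11 and 0.10. Low correlations cannot show that nerves were not paired, so pairing stays unknown, and the main fit did not use the numbers. Alternatives covered background correction, normalization, the Cy3 channel, the filter, probes, array weights, the series table, a replicate block, the variance model and leaving out arrays. Names of genes follow the array design, and exon annotation on mm9 was not used here.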

Additional observations from a re-analysis of the deposited data

Results flagged for a closer look

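Wild-type replicate 1 was far from the other 3 wild-type arrays for 3 collagens. Its log2 ratio was 1.34 for Col1a1, where the others lay from 2.05 to 2.13. It was 1.54 for Col1a2, where they lay from 1.97 to 2.06, and -1.54 for Col4a4, where they lay from -1.04 to -0.97. In each case the gap to the nearest array was larger than Dixon's test allows in groups of 4. Of 42 groups tested, 3 passed that test, and chance gives about 1 in 20. The same array held the highest sum of fold ratios of the skeletal muscle markers, 61.0, and the highest median Cy3 intensity. The part of either in these values was not tested.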

How the results depend on the processing

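No collagen was called under 20 of 21 alternatives, and Col4a1 alone on the arrays numbered 2 to 4. The number of all genes called was 25, and it was 7 with Agilent processed signals, 7 with the series table, 1 with median centring, 16 with no filter on dim probes, 1 with the replicate block, 418 with array weights and 234 on the arrays numbered 2 to 4. Leaving out 1 array gave 3 to 180, the highest without SOD1G93A replicate 1. With the block, 0 collagens were called, and Col4a2 had a limma adjusted p of 0.442. The collagen median difference ran from -0.084, without wild-type replicate 1, to 0.045 when 1 array was left out. The median ratio of nerve over pool was 0.10 with no filter, which adds 13 dim genes, 0.92 with the filter on all 8 arrays, and 0.90 with the mean of kept probes, and 1 collagen was over 2-fold lower with the filter on all 8 arrays. Over 2-fold higher on all 8 arrays were 8 to 11.

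Differences of these uncalled collagens changed sign, and the cause was not tested. With Agilent processed signals and the series table, Col8a1 was 0.091. Col23a1 was -0.013 with median centring, -0.0089 with scaling between arrays, -0.078 with array weights, -0.012 with the mean of kept probes and -0.15 on arrays 2 to 4. Col4a4 was -0.027 in Cy3 alone, -0.021 with array weights and -0.097 on arrays 2 to 4. Col6a2 was 0.032 with array weights and 0.067 on arrays 2 to 4, and Col5a3 was -0.0038 there. Leaving out 1 array gave -0.29 to 0.037 for Col6a2, -0.077 to 0.086 for Col23a1, -0.036 to 0.084 for Col5a1, -0.20 to 0.26 for Col28a1, -0.0033 to 0.098 for Col18a1, -0.049 to 0.13 for Col3a1, -0.093 to 0.094 for Col4a4 and -0.17 to 0.0039 for Col1a2.

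Col4a3 was above background in nerve on only 2 SOD1G93A and 3 wild-type arrays. Its mean ratio was -1.71 in the main processing and -2.56 with Agilent processed signals, and the cause was not tested.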
